A study of Caenorhabditis elegans with 48 samples.

Results

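The genes of the mitochondrial genome of *Caenorhabditis elegans* were followed through starvation and through loss of RNA polymerase II. All genes annotated on the chromosome MtDNA of the assembly WBcel235 were taken, without regard to any measured value, which gave 36 of the 46911 genes in the count tables: 12 protein-coding genes, 2 rRNA genes and 22 tRNA genes. The 48 libraries came from starved L1 larvae, that is, larvae that hatched without food and stopped developing at the first stage. Larvae were collected at 36 h of arrest, or at 132 h after 100 µM auxin or ethanol had been added at 36 h, with 4 replicates in each of 12 groups. Auxin makes the plant F-box protein TIR1 mark proteins that carry a degron (AID) for degradation.

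There were 4 strains, named here by their tissue and tag. The tagged soma strain (*Peft-3::TIR1; ama-1::AID*, LRB389) carries the allele ama-1(syb1513), which puts the degron on the product of *ama-1*, RNA polymerase II's largest subunit, and expresses TIR1 from the transgene ieSi57 under the *eft-3* promoter, which drives expression in the soma. The tagged germline strain (*Pgld-1::TIR1; ama-1::AID*, LRB387) carries the same tag and expresses TIR1 from ieSi64 under the germline promoter of *gld-1*. The soma TIR1 control (*Peft-3::TIR1*, CA1200) and the germline TIR1 control (*Pgld-1::TIR1*, CA1352) carry ieSi57 and ieSi64 with an untagged *ama-1*. Whole larvae were sequenced, so in these bulk samples fewer cells of a type and less RNA per cell cannot be told apart. The tagged soma strain grows more slowly than the others, and its embryos came from more plates.

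Mitochondrial DNA encodes a small set of core subunits of the respiratory chain together with the rRNAs and tRNAs of the mitochondrial ribosome, while all other mitochondrial proteins are imported from the cytosol. It is transcribed by a phage-like RNA polymerase of its own, encoded in the nucleus by *rpom-1* in the worm, and not by RNA polymerase II. In *C. elegans* all of its genes lie on 1 strand, and long precursors are cut into the mature RNAs, mostly at the tRNAs between the mRNAs. The mRNAs encode subunits of complex I (ND genes), complex III (CYTB), complex IV (COX genes) and complex V (ATP6).

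On the plus strand of MtDNA the annotated order began with ND6 (WBGene00010957, bases 113 to 549), ND4L (WBGene00010958, 549 to 783), the shorter rRNA gene MTCE.7 (WBGene00014454, 898 to 1593), ND1 (WBGene00010959, 1763 to 2635) and ATP6 (WBGene00010960, 2634 to 3235). It went on with ND2 (WBGene00010961, 3389 to 4269), CYTB (WBGene00000829, 4504 to 5621), COX3 (WBGene00010962, 5678 to 6449), ND4 (WBGene00010963, 6506 to 7808) and COX1 (WBGene00010964, 7827 to 9428). COX2 (WBGene00010965, 9649 to 10348), the longer rRNA gene MTCE.33 (WBGene00014472, 10403 to 11354), ND3 (WBGene00010966, 11356 to 11691) and ND5 (WBGene00010967, 11691 to 13272) followed. By their lengths of 696 and 952 nt, MTCE.7 was read as the rRNA of the small and MTCE.33 as that of the large ribosomal subunit. Neighbouring genes were at most 18 nt apart and some shared bases, and pairs that HTSeq called ambiguous amounted to 3.21% to 8.45% of the counts on genes, so pairs at gene ends could be lost or shared between neighbours.

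All 22 tRNA genes, 52 to 62 nt long, had 0 counts in all 48 libraries, which allows at most 3 counts per library, or 0.166 to 0.521 CPM, for counting error alone. CPM are counts scaled to a common library total on genes. The libraries were poly-A selected, and no statement about tRNA levels can be drawn from them. The other 14 genes had more than 10 counts in every library. The 12 mRNAs held 0.656% to 1.33% of the counts on genes and the 2 mitochondrial rRNAs 0.0214% to 0.125%. Counts on rRNA genes measure what passed the poly-A selection, and those of the nuclear rRNA genes ranged from 1.86% to 27.5% of the counts on genes.

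Each library held between 5755041 and 18052333 counts on genes. Spike-in RNAs, added in proportion to total RNA, made 11.4 to 90.9 counts per 1000 counts on genes. Their share was 26.5 to 90.9 in the tagged soma strain with auxin against 15.2 to 25 with ethanol, and 1 library stood apart in another group, the germline TIR1 control with ethanol, replicate 4 (68.4 against 17.2 to 21.4). A library of the soma TIR1 control with auxin, replicate 1, stood apart in both mitochondrial rRNAs. Markers of body wall muscle, intestine and neurons were detected in all libraries (6 of 6 genes in each list), as were 3 of 6 markers of hypodermis and 4 of 6 of germ cells. The mRNA of *ama-1* checks the labels only in part, since auxin removes the protein: it was at 815 to 1108 CPM in the tagged soma strain with auxin, above 270 to 606 with ethanol, while the soma TIR1 control had 368 to 900 CPM with auxin and 621 to 845 with ethanol.

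Levels per length differed widely between the mRNAs. In CPM per kilobase of annotated gene, the median over the 48 libraries was highest for COX3 (2387, range 1546 to 3498), ATP6 (2089, 1504 to 3066), COX1 (1632, 1203 to 2415) and CYTB (1173, 747 to 1514). ND1 (746, 489 to 1185) and COX2 (720, 514 to 1019) came next, and ND1 was above COX2 in 34 of 48 libraries, so their order was not fixed. ND5 (323, 230 to 485), ND4 (233, 120 to 442) and ND2 (85.8, 41.3 to 410) formed a middle range, and ND3 (66.6), ND6 (52.9) and ND4L (28.2) were the lowest. ATP6 was above COX1, COX1 above CYTB, CYTB above ND1, and COX2 above ND5 in 48 of 48 libraries, and COX3 was above ATP6 in 43. The rRNA MTCE.7 (249, 182 to 1046) and ND4 were not separated (28 of 48 libraries), and MTCE.33 had a median of 150 (89.1 to 644). By their medians COX3, ATP6, COX1 and CYTB thus stood above all ND mRNAs, although ATP6 and ND1 share bases on 1 strand. ND4L, with 2.1 to 18.1 CPM, was the least precise member.

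**Figure D1:**
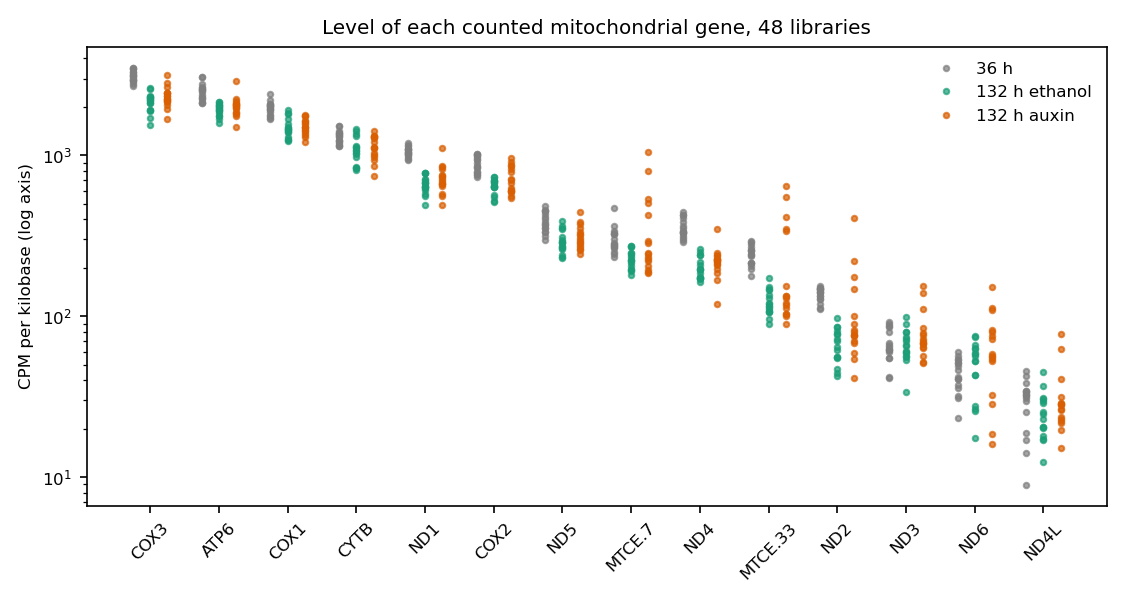
Levels of the 14 counted mitochondrial genes in CPM per kilobase (log axis), 1 point per library, split by condition (16 libraries each). COX3, ATP6 and COX1 were highest, with medians of 2387, 2089 and 1632, and ND4L was lowest, with a median of 28.2. The few auxin libraries far above the rest for MTCE.7, MTCE.33 and ND2 are those of the tagged soma strain and 1 library of the soma TIR1 control.

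The comparison of 132 h in ethanol with 36 h shows how the mitochondrial RNAs changed as starvation went on. Relative to the other RNAs of a library, mitochondrial RNAs fell in all 4 strains. With library sizes set by the spike-ins, that is, relative to total RNA, nearly all of these falls lost their calls. With upper quartile scaling, 10 of the 14 genes tested were lower in the tagged soma strain, against 13.9% of all 17221 genes tested. Of the 14, 10 were lower in the tagged germline strain (15.8% of all genes), 13 in the soma TIR1 control (22.4%) and 11 in the germline TIR1 control (18%), and none was higher. In a fit of the compared libraries alone the tagged soma strain had 6. These calls are from edgeR's quasi-likelihood test, with Benjamini-Hochberg adjusted p-values over all genes tested and a threshold of 0.05. The median log2 fold change of the members was -0.76, -0.88, -1.26 and -0.85 in the same order of strains, beside medians of all genes tested of 0.00, 0.02, -0.09 and 0.00. In CPM, all 4 libraries at 132 h lay below all 4 at 36 h for 8, 9, 11 and 6 of the 14 members, against 8.49%, 10.3%, 13.5% and 8.67% of all genes.

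**Figure D2:**
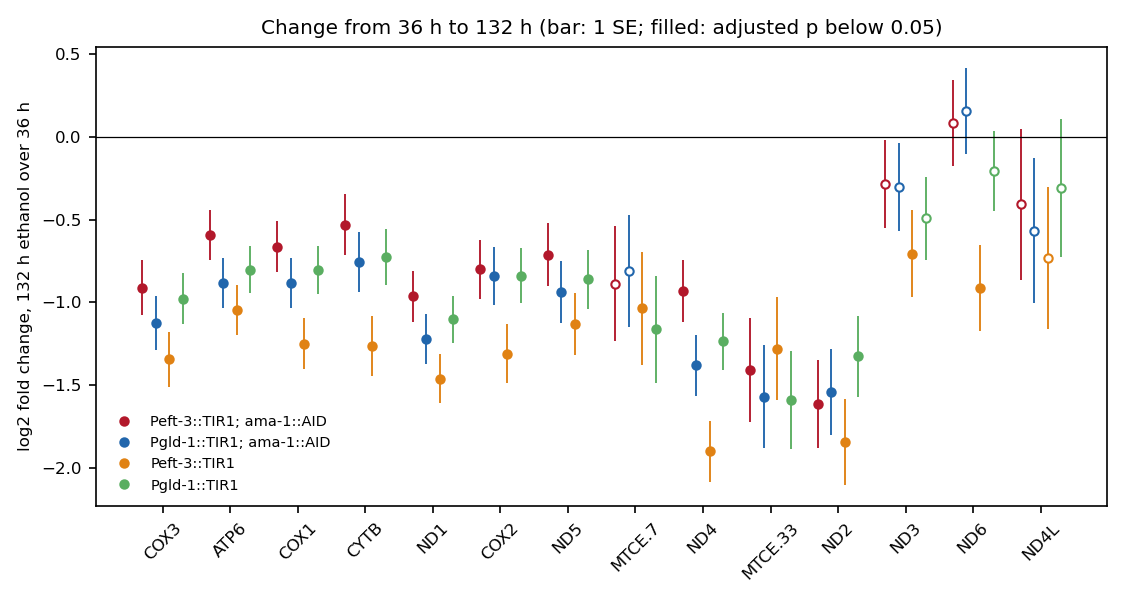
Log2 fold change from 36 h to 132 h with ethanol in the 4 strains for each gene, in the order of levels (points with 1 SE; filled points have an adjusted p below 0.05). Most points lie between -0.5 and -1.9 on this scale of upper quartile and W1, and ND3, ND6 and ND4L lie nearest to 0. With spike-in scaling 0, 0, 1 and 1 of the 14 genes were called.

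Among the subunits of complex I, the enzyme that takes electrons from NADH, ND2 fell most by its estimate in 3 of the 4 strains and ND4 in the soma TIR1 control. ND2 in the tagged soma strain was at 106, 117, 132 and 124 CPM at 36 h and at 62.0, 38.9, 49.0 and 75.2 CPM at 132 h. In the soma TIR1 control it went from 125, 129, 123 and 136 to 67.9, 41.4, 49.1 and 56.3 CPM. The groups did not overlap in either strain, and the log2 fold changes of ND2 were -1.61 ± 0.26 and -1.84 ± 0.26 (SE), with adjusted p = 3.3e-06 and 7.9e-08. In the tagged germline strain and the germline TIR1 control they were -1.54 ± 0.26 and -1.33 ± 0.24. ND4 fell from 556, 575, 528 and 553 CPM to 225, 224, 212 and 220 CPM in the soma TIR1 control, without overlap. The change of ND4 there was -1.90 ± 0.18 (adjusted p = 4.8e-12), against -0.93 ± 0.19 in the tagged soma strain, -1.38 ± 0.18 in the tagged germline strain and -1.24 ± 0.17 in the germline TIR1 control. ND1 fell by 0.96 to 1.46 and ND5 by 0.71 to 1.13 on the log2 scale over the 4 strains, all past the threshold.

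The 3 short ND mRNAs behaved otherwise. ND4L passed the threshold in no strain (log2 fold changes of -0.73 to -0.31, adjusted p of 0.17 to 0.61), with a standard error of 0.42 to 0.45, the least precise of the 14 estimates. ND3 was called in the soma TIR1 control alone (-0.71 ± 0.26, adjusted p = 0.026), as was ND6 (-0.91 ± 0.26, adjusted p = 0.0034). The call of ND3 was lost without replicate 1 (adjusted p = 0.064), replicate 2 (0.15) or replicate 4 (0.064) of both times. In all it was lost in 7 of 12 fits that each left out 1 library or 1 replicate number. ND6 in the tagged soma strain was at 10.2, 24.7, 23.2 and 23.8 CPM at 36 h and at 32.3, 18.8, 27.8 and 22.9 CPM at 132 h, with overlap and a log2 fold change of 0.08 ± 0.26.

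CYTB, the mitochondrially encoded subunit of complex III, had the smallest change of the abundant mRNAs in 3 strains. It fell by 0.53 ± 0.18 in the tagged soma strain (adjusted p = 0.024), 0.76 ± 0.18 in the tagged germline strain and 0.73 ± 0.17 in the germline TIR1 control, and by 1.26 ± 0.18 in the soma TIR1 control, on the log2 scale. The call in the tagged soma strain was lost without replicate 2 (adjusted p = 0.13), replicate 3 (0.071) or replicate 4 (0.13), and that in the germline TIR1 control without replicate 4 (0.070). Of 12 fits that each left out 1 library or 1 replicate number, 5 lost the former call and 1 the latter. In CPM the values of CYTB in the tagged soma strain overlapped (1327 to 1690 at 36 h, 1248 to 1591 at 132 h). CPM counts nuclear rRNA in its total, while the fit's upper quartile is over protein-coding genes. The complex IV mRNAs COX1, COX2 and COX3, core subunits of cytochrome c oxidase, fell by 0.66 to 1.25, 0.80 to 1.31 and 0.91 to 1.34, and ATP6, a subunit of the proton channel of ATP synthase, fell by 0.59 to 1.04. COX1 was at 3109, 2964, 3344 and 3301 CPM at 36 h and at 2886, 2362, 2706 and 3052 CPM at 132 h in the tagged soma strain. These 2 groups overlapped in 1 pair of libraries, and the log2 fold change was -0.66 ± 0.15 (adjusted p = 0.00067).

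Of the mitochondrial rRNAs, the longer one, MTCE.33, fell in all 4 strains. It was at 258, 170, 231 and 226 CPM at 36 h and at 111, 129, 102 and 105 CPM at 132 h in the tagged soma strain, with no overlap and a log2 fold change of -1.41 ± 0.32 (adjusted p = 0.00044). In the other strains it fell by 1.57 ± 0.31, 1.28 ± 0.31 and 1.59 ± 0.29. The shorter one, MTCE.7, changed by -0.81 to -1.16, and was called in the 2 TIR1 controls (adjusted p = 0.012 and 0.0035) but not in the tagged strains (adjusted p = 0.051 and 0.062). Without replicate 2 the call in the germline TIR1 control was lost (adjusted p = 0.056). The ratio of MTCE.33 to MTCE.7 counts was 0.846 to 1.35 over the 16 libraries at 36 h and 0.561 to 1.07 over the 16 libraries at 132 h with ethanol, so these ranges overlapped. Nuclear rRNA took 7.04% to 15.2% of the counts at 36 h and 2.66% to 9.49% at 132 h with ethanol in the tagged soma strain, 5.43% to 10.9% and 4.35% to 6.82% in the tagged germline strain, 3.99% to 16.6% and 3.17% to 18.4% in the soma TIR1 control, and 5.54% to 12% and 3.85% to 5.46% in the germline TIR1 control, and its part in the change of the mitochondrial rRNAs was not tested.

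These changes are relative to the nuclear mRNAs of the same library. With library sizes set to the spike-in counts, so that a value is relative to the total RNA that went into the library, the median of all genes tested rose by 0.87, 0.80, 0.87 and 0.47 on the log2 scale from 36 h to 132 h. The members' medians were then 0.12, -0.09, -0.25 and -0.28. No member was called in either tagged strain (0 and 2 of 14 with an unadjusted p below 0.05), against 3.19% and 3.76% of all genes called lower. ND4 alone was lower in the soma TIR1 control (-0.88, adjusted p = 0.041, 5.81% of all genes lower) and MTCE.33 alone in the germline TIR1 control (-1.11, adjusted p = 0.026, 5.29% of all genes lower). In the tagged soma strain COX1 was at 135, 91.3, 168 and 108 counts per 1000 spike-in counts at 36 h and at 116, 125, 144 and 201 at 132 h, which overlapped.

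The nuclear genes for the same complexes moved in the same direction on the scale of the upper quartile. Of the nuclear subunits of complex I tested, 10 of 13 were lower and 1 higher in the tagged soma strain, against 13.9% of all genes lower and 14.5% higher, with a median of -0.96, and those of complex III (5 of 7 lower, -0.97), complex IV (6 of 7, -0.97) and complex V (6 of 10, -0.57) had similar counts. The largest statistics were those of *nuo-1*, a flavoprotein subunit of complex I (-1.60 ± 0.12), and *nduf-9* (-1.75 ± 0.17), of the Rieske protein *isp-1* (-1.36 ± 0.15) and cytochrome c1 *cyc-1* (-1.15 ± 0.13), of *cox-4* (-1.11 ± 0.15) and *cox-5B* (-1.23 ± 0.18), and of *atp-3* (-0.83 ± 0.15) and *atp-2* (-0.73 ± 0.16). Complex II, whose subunits are all nuclear, had 0 of 5 genes called there (median -0.04), 1 lower in the tagged germline strain, 2 lower in the soma TIR1 control, and 1 lower and 1 higher in the germline TIR1 control. In the soma TIR1 control 11 of 13, 6 of 7, 7 of 7 and 7 of 10 genes of complexes I, III, IV and V were lower, against 22.4% of all genes. Of 70 genes of mitochondrial ribosomal proteins, 24 to 27 were lower and 2 to 5 higher in the 4 strains, among them *mrps-5* (-2.06 ± 0.15 in the tagged soma strain). Across these strains 13.9% to 22.4% of all genes were lower and 14.5% to 20% higher.

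The mRNA of the mitochondrial RNA polymerase, *rpom-1*, was lower at 132 h in all 4 strains. Its level was 70.2, 72.1, 79.0 and 82.4 CPM at 36 h and 31.5, 32.4, 32.2 and 41.6 CPM at 132 h in the tagged soma strain, a log2 fold change of -1.51 ± 0.17 (adjusted p = 7.4e-10), and in the others its changes were -1.73 to -1.36. *hmg-5*, which encodes the worm's mitochondrial DNA packaging protein, was called in the germline TIR1 control alone (0.63 ± 0.24, adjusted p = 0.040). *hoe-1*, which encodes RNase Z, an enzyme that trims the 3′ ends of tRNAs, went the other way, from 17.9 to 23.2 CPM at 36 h to 106 to 210 CPM at 132 h in the tagged soma strain (2.40 ± 0.24). Cell type markers changed over the same time: of 6 body wall muscle markers 5 were lower in each strain, and their summed level in the tagged soma strain was 12358 to 19475 CPM at 36 h and 3624 to 5344 CPM at 132 h, with no marker at 0. Of 6 intestinal markers 3 were lower and 2 higher in that strain, with a summed level of 10569 to 13527 CPM at 36 h and 936 to 1280 CPM at 132 h. In the same strain 0 of 6 hypodermal and 0 of 6 neuronal markers were called. Of the neuronal markers 3 were lower in the tagged germline strain, and 2 were lower and 1 higher in each TIR1 control. In the soma TIR1 control 1 hypodermal marker was lower. Of 6 germ cell markers 1 was higher in the tagged soma strain and 2 in each other strain. Their summed level went from 48.2 to 86.0 CPM at 36 h to 131 to 211 CPM at 132 h in the tagged soma strain. Over the 4 strains 13.9% to 22.4% of all genes were lower and 14.5% to 20% higher. Of 8 markers of adult intestine and oocytes 5 were higher in the germline TIR1 control (median 3.02), and 0 were called in the other strains. Their part in the mitochondrial changes was not tested.

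The soma TIR1 control fell further than the tagged soma strain for some members, in comparisons added after the values had been seen. At 132 h with ethanol, 4 members were higher in the tagged soma strain than in its control (ND6, CYTB, ND4 and COX1), against 5.89% of all genes. ND6 differed most: it was at 11.6, 7.69, 11.3 and 12.1 CPM in the control and at 32.3, 18.8, 27.8 and 22.9 CPM in the tagged strain, which did not overlap, with a log2 difference of 1.28 ± 0.24 (adjusted p = 0.00027). Over all 8 soma TIR1 control libraries at 132 h, auxin included, ND6 was at 7.05 to 14.2 CPM (median 11.5). The 24 libraries of the other strains had 18.7 to 66.5 CPM (median 26.7), which did not overlap. No other member of the 14 separated in this way. The share of all genes that did so was not computed, so the separation is not shown to be particular to ND6. Without each replicate number in turn ND6 kept an adjusted p of at most 0.011, while the count of called members was 1 to 3: CYTB was lost without replicate 3 or 4, ND4 without replicate 1, 3 or 4, and COX1 without any of the 4. With the replicate number as a block the count was 5, with ND1 gained. With spike-in scaling 0 of 14 were called (ND6 1.15, adjusted p = 0.18). On the upper quartile scale, nuclear genes were higher here too: 7 of 10 of complex V, 4 of 7 of complex III and 3 of 7 of complex IV. So were 2 of 13 of complex I, 2 of 5 of complex II, 5 of 6 body wall muscle markers and 3 of 6 intestinal markers. Of 70 genes of mitochondrial ribosomal proteins 1 was higher and 3 were lower. The part of these shifts in the mitochondrial values was not tested.

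The difference in the time effect itself was called for ND4 alone (0.97 ± 0.24, adjusted p = 0.014), against 1.34% of all genes with a higher time effect in the tagged soma strain. That call was lost without replicate 1 (adjusted p = 0.089), without replicate 3 (0.15) and with spike-in scaling (0.81). With the replicate number as a block 2 members were called, with CYTB gained, and in a fit of the compared libraries alone 4. For ND6 the difference in time effect was 0.99, with an adjusted p of 0.091. Between the tagged germline strain and its control 0 of 14 members differed at 132 h with ethanol (0.00581% of all genes) and 0 in the time effect (0% of all genes), with 1 and 0 members at an unadjusted p below 0.05 and 0 by DESeq2 in both.

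Auxin against ethanol at 132 h asks whether the mitochondrial transcripts, which another polymerase makes, were kept when RNA polymerase II was removed from the soma. In the tagged soma strain 3 members were higher with auxin relative to the other RNAs, namely ND2 and both rRNAs, and 0 were lower, against 12.6% of all genes higher and 15.0% lower; with spike-in scaling these 3 were not called and 8 other members were lower, beside 48.8% of all genes. The 3 were also the members whose CPM values with auxin all lay above those with ethanol, against 14.8% of all genes.

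ND2 was at 361, 130, 154 and 194 CPM with auxin and at 62.0, 38.9, 49.0 and 75.2 CPM with ethanol. Its lowest auxin library was above its highest ethanol library, and the log2 fold change was 2.12 ± 0.30 (adjusted p = 2.5e-07). MTCE.33 was at 613, 395, 334 and 324 CPM with auxin and at 111, 129, 102 and 105 CPM with ethanol, a log2 fold change of 2.02 ± 0.35 (adjusted p = 1.3e-05). MTCE.7 was at 560, 373, 295 and 350 CPM with auxin and at 173, 187, 126 and 149 CPM with ethanol, a log2 fold change of 1.60 ± 0.39 (adjusted p = 0.0013). Replicate 1 was the highest auxin library for all 3 genes, and without it the changes were 1.74, 1.81 and 1.39, with adjusted p = 7.5e-07, 5.9e-05 and 0.0050. In a fit of the 8 libraries compared alone ND2 lost its call (1.69, adjusted p = 0.15).

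**Figure D3:**
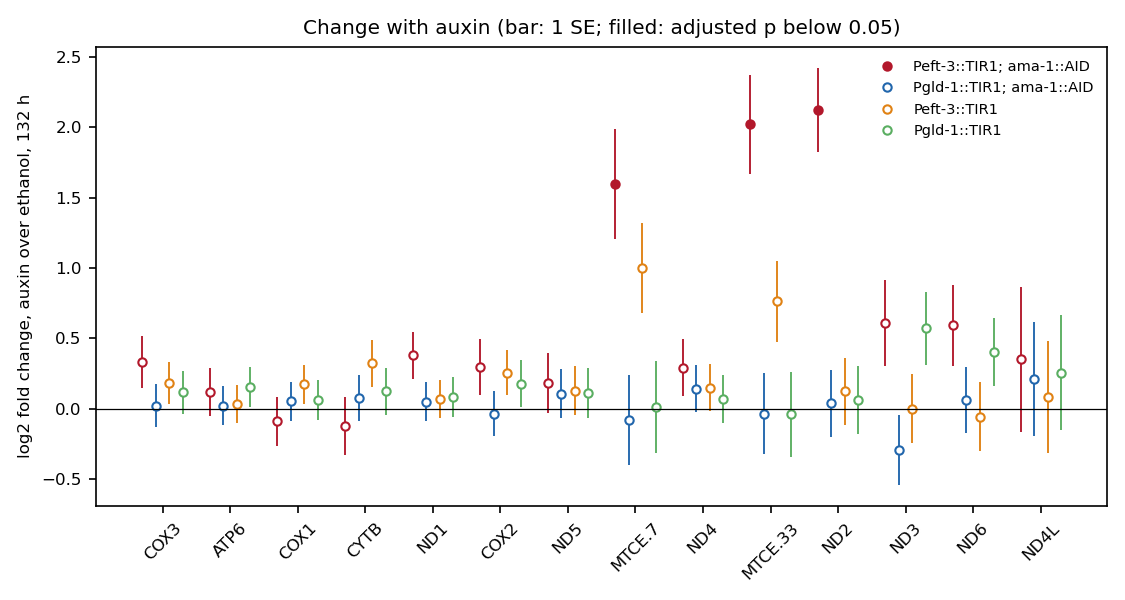
Log2 fold change of auxin over ethanol at 132 h in the 4 strains for each gene (points with 1 SE; filled points have an adjusted p below 0.05), on the scale of upper quartile and W1. Only MTCE.7, MTCE.33 and ND2 in the tagged soma strain are filled, at 1.60, 2.02 and 2.12, and none of these was called with spike-in scaling. The open points of MTCE.7 and MTCE.33 in the soma TIR1 control, at 1.00 and 0.76, rest on 1 library.

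The other 11 members overlapped between auxin and ethanol in the tagged soma strain and passed no threshold, with log2 fold changes of -0.12 (CYTB) to 0.61 (ND3) beside 0.14 for the median gene. ND6 was at 49.5, 23, 48.0 and 66.5 CPM with auxin (log2 fold change 0.59 ± 0.29, adjusted p = 0.13), and without the covariate W1 the calls included ND6 (0.86, adjusted p = 0.0033) and ND3 (0.62, adjusted p = 0.035) as well. W1 was itself higher with auxin in this strain (0.10 to 0.342 over the libraries) than with ethanol (-0.167 to -0.0210). COX1, at 2816, 2084, 2197 and 2294 CPM with auxin, was near its ethanol values, with a log2 fold change of -0.09 ± 0.17.

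The share of nuclear rRNA is given here beside the mitochondrial rRNA values. It made up 5.54%, 27.5%, 15.0% and 3.22% of the counts with auxin and 4.86%, 9.49%, 2.77% and 2.66% with ethanol in the tagged soma strain. These ranges overlapped, and the part of nuclear rRNA in the values of MTCE.7 and MTCE.33 was not tested. Pairs that HTSeq placed in no gene amounted to 2.93% to 5.07% of the counts on genes with auxin, above 1.62% to 2.31% with ethanol. Their part in the values of ND2 and the rRNAs was not tested either. Mitochondrial rRNA counts per 100 mitochondrial mRNA counts were 7.29 to 10.1 with auxin, above 2.49 to 3.82 with ethanol and 3.48 to 4.41 at 36 h. The ratio of MTCE.33 to MTCE.7 was 0.926 to 1.13 with auxin, above 0.641 to 0.805 with ethanol, and within 0.890 to 1.18 at 36 h.

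**Figure D4:**
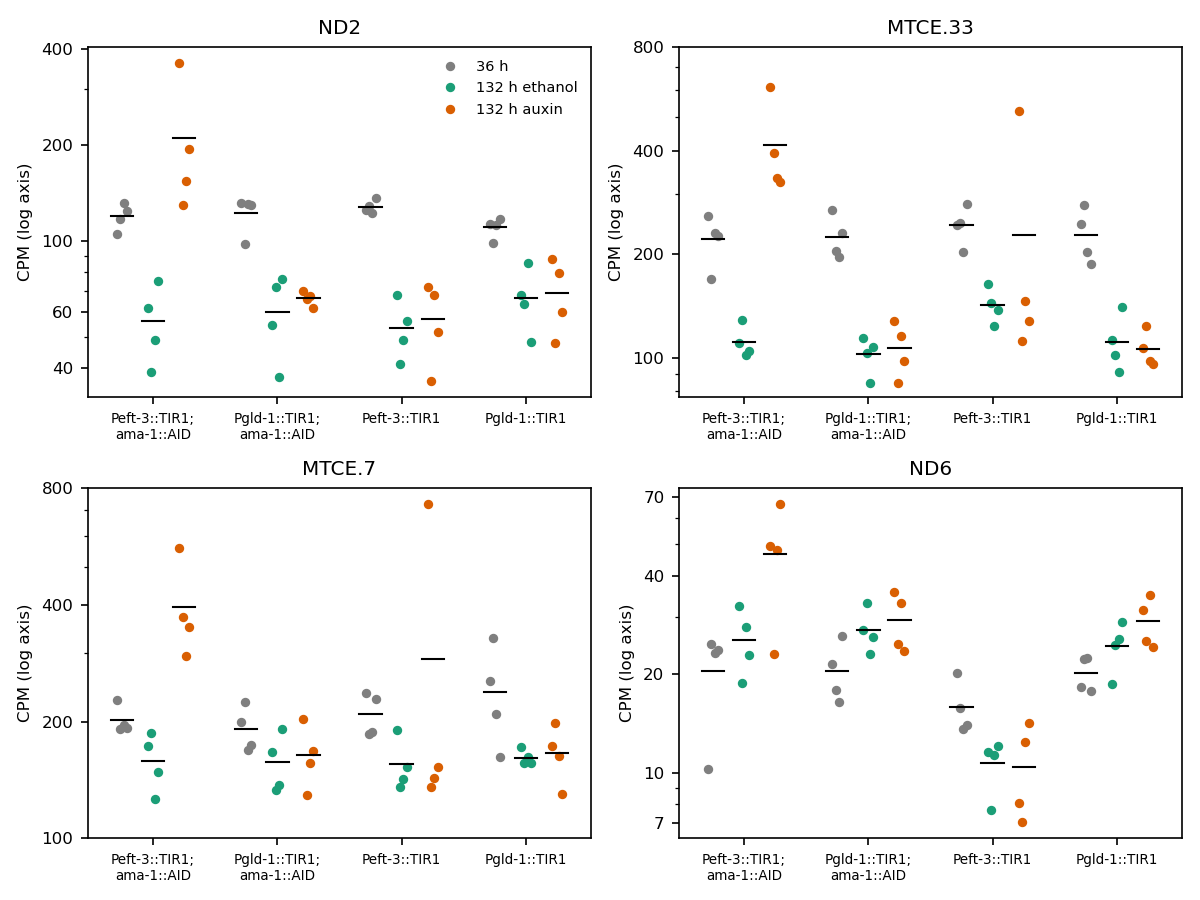
CPM (log axes) of ND2, MTCE.33, MTCE.7 and ND6 in each library of the 12 groups, with the group mean as a bar. The auxin libraries of the tagged soma strain are above its ethanol libraries for ND2, MTCE.33 and MTCE.7, 1 auxin library of the soma TIR1 control stands at 521 CPM of MTCE.33 and 728 CPM of MTCE.7, and the soma TIR1 control has the lowest ND6 at 132 h.

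Relative to the spike-ins the abundant mRNAs were lower with auxin in the tagged soma strain, as were many other genes. The median of all genes tested fell by 1.21 on the log2 scale with auxin, and 8 of the 14 members were called lower, against 48.8% of all genes, so their share was near the background. CYTB (-1.57, adjusted p = 0.00023), COX1 (-1.45), ND5 (-1.20), ATP6 (-1.19), ND4 (-1.13), COX3 (-1.11), COX2 (-1.04) and ND1 (-0.98) made up the 8. COX1 was at 58.4, 78.6, 53.0 and 25.2 counts per 1000 spike-in counts with auxin, all below the 116, 125, 144 and 201 with ethanol. ND2 (0.59, adjusted p = 0.20), MTCE.33 (0.73, adjusted p = 0.10) and MTCE.7 (0.14, adjusted p = 0.80) were not called on that scale. MTCE.33, at 12.7, 14.9, 8.06 and 3.57 counts per 1000 spike-in counts with auxin and 4.44, 6.85, 5.43 and 6.90 with ethanol, overlapped, with its low value in replicate 4, the library with the largest spike-in share.

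**Figure D5:**
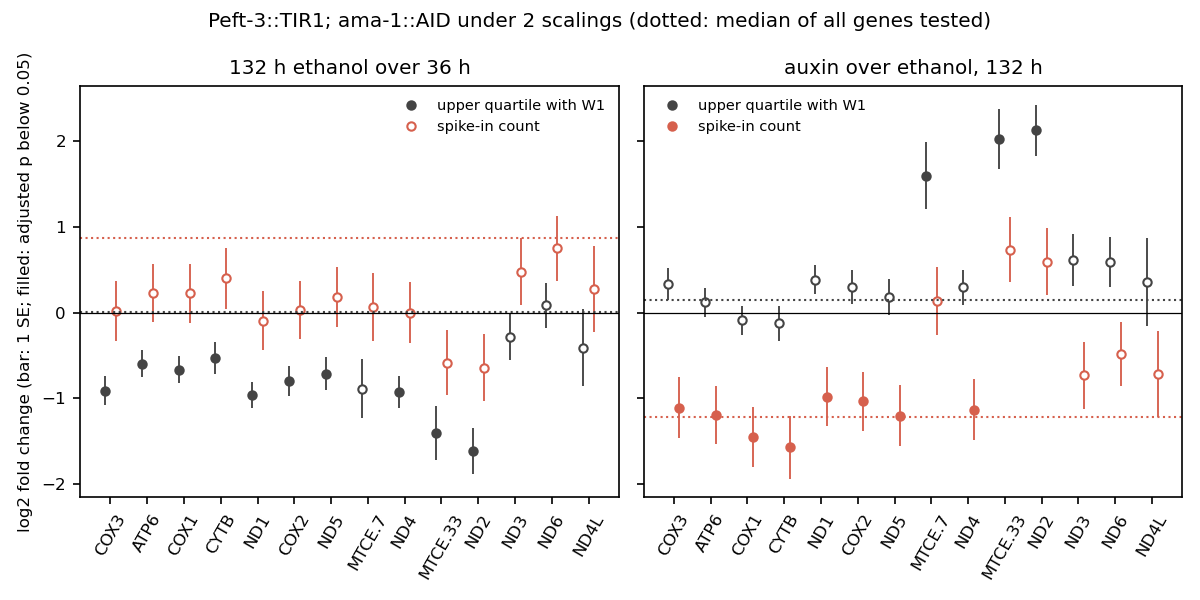
Log2 fold changes of the 14 members in the tagged soma strain with time (left) and with auxin (right) under 2 scalings, the upper quartile with W1 (black) and the spike-in count (red), with 1 SE and filled points for an adjusted p below 0.05. Dotted lines give the median of all genes tested, which moves from 0.00 to 0.87 on the left and from 0.14 to -1.21 on the right, and the members move with it, so that the falls with time and the rises with auxin lose their calls with spike-in scaling.

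Shares within the 12 mitochondrial mRNAs do not depend on the scaling, though they count only RNA that passed the poly-A selection. ND2 made up 3.12%, 1.71%, 1.79% and 2.2% of the mitochondrial mRNA counts with auxin in the tagged soma strain, against 0.646%, 0.471%, 0.535% and 0.747% with ethanol and 0.961% to 1.15% at 36 h. In the other 3 strains at 132 h the share of ND2 was 0.482% to 0.975%, so the tagged soma strain with auxin lay above all other groups. ND1 took 8.10% to 8.66% with auxin and 6.69% to 7.48% with ethanol, and 7.99% to 8.44% at 36 h. CYTB and COX1 took less, 11.7% to 13.5% and 24.3% to 27.4% with auxin, against 15.1% to 16% and 28.6% to 30.3% with ethanol, again with no overlap. Shares of the other mitochondrial mRNAs are not described here, so no count of mRNAs whose share separated is given.

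In the other strains auxin moved no member past the threshold. There were 0 of 14 calls by edgeR's quasi-likelihood test in the tagged germline strain, the soma TIR1 control and the germline TIR1 control, where 0%, 0% and 0% of all genes were called, and 0, 2 and 1 members had an unadjusted p below 0.05. The likelihood ratio test and DESeq2 also called 0 members in each. Log2 fold changes of the members were -0.29 to 0.21 in the tagged germline strain, -0.06 to 1.00 in the soma TIR1 control and -0.04 to 0.57 in the germline TIR1 control. In the soma TIR1 control MTCE.7 was at 728, 135, 143 and 153 CPM with auxin and at 191, 136, 142 and 153 CPM with ethanol, so its change of 1.00 ± 0.32 (unadjusted p = 0.0028, adjusted p = 1.00) came from replicate 1. That library also had 521 CPM of MTCE.33, against 112 to 147 in the other 3, and a nuclear rRNA share of 22.1%, against 4.04% to 7.41%. Without it the changes of MTCE.7 and MTCE.33 were -0.15 and -0.20.

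The auxin effect differed between the tagged soma strain and its control for ND2 (2.00 ± 0.38, adjusted p = 8.9e-05) and MTCE.33 (1.26 ± 0.45, adjusted p = 0.042), against 7.77% of all genes with a higher effect in the tagged strain. MTCE.7 did not pass (0.60 ± 0.50, adjusted p = 0.45). The 2 comparisons within strains have no library in common. Without the soma TIR1 control with auxin, replicate 1, the differences were larger, at 2.17 (ND2), 2.11 (MTCE.33, adjusted p = 2.5e-07) and 1.62 (MTCE.7, adjusted p = 7.5e-05). Over 20 fits that each left out 1 library or 1 replicate number, ND2 stayed past the threshold in all 20 (1.62 to 2.19) and MTCE.33 in 6 (0.87 to 2.11). Single libraries without which MTCE.33 was lost were replicates 1 and 2 with auxin and 1, 3 and 4 with ethanol of the tagged soma strain, and replicates 2, 3 and 4 with auxin and 1, 2 and 3 with ethanol of its control, as were replicate numbers 2, 3 and 4 left out of every group. In a fit of these 16 libraries alone neither was called (ND2 1.81, adjusted p = 0.13). With spike-in scaling neither was called, and COX1 (-1.45, adjusted p = 0.018) and CYTB (-1.73, adjusted p = 0.0065) had a lower effect in the tagged strain, against 27.9% of all genes. Between the tagged germline strain and its control 0 members differed (0% of all genes, 1 member with an unadjusted p below 0.05, 0 by DESeq2).

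Set against 36 h in place of 132 h ethanol, a comparison added after the values had been seen, the tagged soma strain with auxin had 8 of 14 members lower (22.6% of all genes) and 1 higher (23.7%). The 8 were the abundant mRNAs: COX1 (-0.75 ± 0.14, adjusted p = 2.5e-05), CYTB (-0.65), ND4 (-0.64), ND1 (-0.58), COX3 (-0.58), ND5 (-0.53), COX2 (-0.50) and ATP6 (-0.47), and these 8 were also lower with spike-in scaling (24.7% of all genes). ND6 was higher (0.67 ± 0.24, adjusted p = 0.020), a call lost with spike-in scaling and without replicate 1 (0.22), replicate 3 (0.051) or replicate 4 (0.062). Of the 8, ATP6 was lost without replicate 2 or 3, COX2 without replicate 2 or 3, and ND5 without replicate 3 or 4, and in a fit of the compared libraries alone 1 member was called lower and 2 higher. ND2, MTCE.7 and MTCE.33, each lower at 132 h with ethanol by its value, were not called here. MTCE.7 (0.71, adjusted p = 0.067) and MTCE.33 (0.61, adjusted p = 0.081) had all 4 auxin libraries above the 4 at 36 h. That was also so for 25.8% of all genes. The comparisons of auxin and of 36 h with ethanol share the 4 ethanol libraries, so their opposite signs for these 3 genes are not independent.

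The nuclear partners did not move as a block with auxin in the tagged soma strain, where 12.6% of all genes were higher and 15.0% lower. Of the nuclear complex V genes 5 of 10 were lower and 1 higher (median -0.41 beside 0.14 for all genes), with *atp-1* (-1.45 ± 0.19) and *atp-2* (-1.21 ± 0.18), the alpha and beta subunits of the catalytic head, at the top. Of complex I, 4 of 13 were higher and 0 lower, among them *gas-1* (0.61 ± 0.16) and *nduf-7* (0.66 ± 0.17). Complex III had 1 of 7 in each direction, *cyc-1* (-0.63 ± 0.15) and *ucr-2.3* (1.69 ± 0.41), complex IV had 0 of 7 called, and complex II had 1 of 5 in each direction, *sdha-1* (-0.63 ± 0.16) and *sdha-2* (1.57 ± 0.48). Of 70 genes of mitochondrial ribosomal proteins 14 were higher and 2 lower, with *mrps-7* (2.56 ± 0.31) and *mrpl-41* (-2.17 ± 0.29) first by p. These values are on the scale of upper quartile and W1, on which the median gene stands at 0.14, against -1.21 with spike-in scaling.

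*rpom-1* was lower with auxin in the tagged soma strain, at 18.5, 13.2, 12.1 and 22.7 CPM against 31.5, 32.4, 32.2 and 41.6 CPM with ethanol. The groups did not overlap, the log2 fold change was -1.09 ± 0.19 (adjusted p = 1.9e-05), and the auxin effect was lower than in the soma TIR1 control by 1.24 ± 0.24 (adjusted p = 0.00015). On the scale of upper quartile and W1, ND2 and both rRNAs were higher in these libraries and the other members were not called. Whether the level of *rpom-1* mRNA had a part in the mitochondrial values was not tested. *hmg-5* was not called (0.31 ± 0.30, adjusted p = 0.47), and *hoe-1* was at 25.8, 28.2, 24.2 and 54.1 CPM with auxin, below its 106 to 210 CPM with ethanol (-2.18 ± 0.26, adjusted p = 4.7e-09). Of the 10 tested genes of mitochondrial DNA upkeep and expression, 1 was higher and 3 were lower, beside 12.6% and 15.0% of all genes.

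Markers of some cell types moved with auxin in this strain, where 12.6% of all genes were higher and 15.0% lower. All 6 body wall muscle markers were lower (median -2.66), with a summed level of 1297 to 2288 CPM with auxin and 3624 to 5344 CPM with ethanol. Of 6 germ cell markers 3 were higher, with a summed level of 169 to 615 CPM against 131 to 211 CPM, and of 8 markers of adult intestine and oocytes 2 were higher, with 47.2 to 401 CPM against 24.6 to 31.8 CPM. Of the 6 intestinal markers 1 was higher and 2 were lower, with a summed level of 1919 to 3392 CPM with auxin against 936 to 1280 CPM. Of 6 hypodermal markers 1 was lower, and 0 of 6 neuronal markers were called. No marker was at 0 in all 4 libraries of either group. The part of these shifts in the values of ND2 and the rRNAs was not tested.

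Before auxin, at 36 h, no difference with the tag was detectable by this test. The tagged soma strain and its control differed in 0 of 14 members (0.197% of all genes), with 2 members, ND4 (-0.46 ± 0.17) and ATP6 (-0.38 ± 0.14), at an unadjusted p below 0.05. All 4 tagged libraries lay below the 4 controls for these and for COX2 and ND5, against 1.63% of all genes. The tagged germline strain and its control differed in 0 members (0.00581% of all genes), with 0 at an unadjusted p below 0.05 and log2 differences of -0.32 to 0.36. DESeq2 called 0 members in both pairs.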

How the data were processed

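Poly-A RNA of whole L1 larvae was measured by RNA-seq in 48 libraries. The authors mapped 50 bp read pairs with Bowtie 1.2.2 to the worm genome (WS273) and the ERCC spike-in sequences and counted pairs per gene with HTSeq 0.11.2, and the deposited tables hold these counts, not normalized, of 46911 genes and 92 spike-in RNAs. Bowtie kept pairs with at most 2 placements (-m 2), so nuclear copies of mitochondrial sequence could take or lose pairs. The overlap mode and the strand setting of HTSeq are not given in the sources used here, nor which libraries had 14 and which 15 PCR cycles. Names came from the Ensembl annotation (3 of the 14 counted genes) or from RefSeq positions in the same assembly.

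Groups follow the deposited labels. Counts were tested with edgeR 4.0.16 (quasi-likelihood F test, two-sided, R 4.3.3) on 17221 genes of all biotypes whose count exceeded 10 in 4 or more libraries, in 1 fit of all 48 libraries with group and W1 as terms. Library sizes were upper quartiles over 15549 protein-coding genes, and W1 is the first factor of unwanted variation (RUVg, k = 1) over 62 spike-ins, as in the study. The study's likelihood ratio test and DESeq2 1.42.0 were alternatives. SE is the log2 fold change divided by the square root of F. Calls need a Benjamini-Hochberg adjusted p below 0.05 over all genes. CPM is scaled to a library's total on genes, without spike-ins. The floor given for the tRNAs covers counting error only, while SE also holds the spread between replicate libraries.

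The labels describe parallel hypochlorite treatment of the 4 strains, and equal replicate numbers were taken to mark 1 such treatment, which the labels do not state. Deviations from the group means correlated at 0.047 on average between libraries of 1 number (264 pairs) and at -0.015 between numbers (792 pairs), so the pairing is weak, and it was fitted as an alternative. Replicate libraries differed by more than counting error (chi-squared per degree of freedom 7.95 to 234 over 72 pairs).

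Members, lists and tests were chosen with earlier results of these data known. All counted members could be named, with *rpom-1*, *hmg-5*, *ama-1* and the 2 genes of smallest p past the threshold in each nuclear list; the values of *hoe-1* by library, and ND6 in the soma TIR1 control, were singled out after they had been seen. 1 gene of the list for mitochondrial DNA upkeep was not found under its name.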

Additional observations from a re-analysis of the deposited data

Results flagged for a closer look

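Within a group of 4, a library was singled out where its gap to the nearest other library exceeded Dixon's 95% critical share of the group's range. Of 168 sets of 1 gene in 1 group, 11 had such a library, and chance gives about 1 in 20. Both mitochondrial rRNAs were far higher in the soma TIR1 control with auxin, replicate 1, at 728 CPM of MTCE.7 (135 to 153 in the other 3) and 521 CPM of MTCE.33 (112 to 147). In the tagged soma strain at 36 h, replicate 1 had 10.2 CPM of ND6 (23.2 to 24.7 in the others) and 227 CPM of MTCE.7 (191 to 196), and replicate 3 had 29.2 CPM of ND3 (18.4 to 20.0). In the tagged germline strain at 36 h, replicate 2 had 3.30 CPM of ND4L (7.67 to 8.10) and 97.8 CPM of ND2 (130 to 132), and replicate 1 had 30.1 CPM of ND3 (20.7 to 22.2). The soma TIR1 control with ethanol, replicate 1, had 1134 CPM of CYTB (912 to 939). In the germline TIR1 control with auxin, replicate 4 had 1052 CPM of CYTB (1430 to 1485) and replicate 1 had 37.3 CPM of ND3 (21.4 to 24.1).

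Tests of the difference between the tagged soma strain and its control singled out the auxin effect on ND2 (2.00 on the log2 scale) and MTCE.33 (1.26) and the time effect on ND4 (0.97).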

How the results depend on the processing

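For the 4 comparisons of time, the count of called members stayed within 1.5 times under all alternatives but spike-in scaling, with 0 of 14 (tagged soma strain), 0 (tagged germline strain), 1 (soma TIR1 control) and 1 (germline TIR1 control) called, and a fit of the compared libraries alone, with 6 in the tagged soma strain. Among called members, signs turned with spike-in scaling for COX3 (0.0193), COX2 (0.0307), COX1 (0.22), ATP6 (0.23), ND5 (0.18) and CYTB (0.40) in the tagged soma strain, CYTB (0.11) in the tagged germline strain, and MTCE.7 (0.0185) and ND3 (0.20) in the soma TIR1 control, none of them past the threshold. The 3 calls with auxin in the tagged soma strain became 5 without W1, 1 among protein-coding genes alone, since the rRNAs were then not tested, and 8, all lower, with spike-in scaling. The 2 calls of the auxin effect against the control became 1 at a threshold of 0.01, 1 among protein-coding genes alone, 0 in a fit of the compared libraries alone, 1 in that fit without W1, and 2, both lower, with spike-in scaling. Leaving out libraries gave 1 to 3. The soma TIR1 control had 2 calls with auxin with no filter on low counts. Against 36 h, the tagged soma strain with auxin had 3 calls, 2 of them higher, in a fit of the compared libraries alone. The time effect, tagged soma strain against its control, had 1 call but 2 with no filter, 3 by DESeq2, and 4 in a fit of the compared libraries alone, with and without W1. The 5 comparisons of 132 h ethanol, time effects and 132 h auxin against 36 h, and the fit of the compared libraries without W1, were added after seeing the data, and for these comparisons replicate numbers but no single libraries were left out.

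With the replicate block, no call changed among the 168 in the comparisons set first (the 3 of the tagged soma strain with auxin remained called, ND2 at 2.02), while ND1 at 132 h with ethanol and CYTB in the time effect were gained, tagged soma strain against its control. The cause of these changes was not tested. Depth limits ND4L, ND3 and ND6, the mRNAs of lowest level, and the tRNAs, with 0 counts.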
